A study of Mus musculus with 2 samples.

Results

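Ms4a1-positive B cells were selected from single-cell RNA sequencing of mouse bone marrow by the transcripts that each cell barcode held. Ms4a1 encodes CD20, a surface protein that B cells gain late in their development in the marrow. A barcode entered with at least 200 genes and at most 10% mitochondrial UMIs (unique molecular identifiers, each standing for 1 captured transcript). It also needed 3 or more UMIs of Cd79a and Cd79b together, which encode the signalling chains of the B cell receptor, and 1 or more of Ms4a1. Barcodes with over 2 UMIs of Vpreb1, Igll1 and Dntt (genes of earlier B cell precursors), over 1 of Cd3e, Cd3d and Cd3g (T cells) or over 10 of Jchain (plasma cells) were left out. So were those with 5% or more of their UMIs from 4 hemoglobin genes or 2% or more from S100a8 and S100a9 (neutrophils). The rule found 1051 cells among 12259 barcodes within the gene and mitochondrial limits, and 17045 barcodes in all.

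The cells came from 2 libraries of C57BL/6 mice aged 6 months, with atherosclerosis as the labelled disease. The experimental library carried the label Apoe(-/-), Itgb3(-/-) and held 202 B cells, and the control library carried Apoe(-/-), Itgb3(+/+) and held 849 B cells. By the labels both genotypes lack Apoe, which encodes a carrier of plasma lipids, and they differ in Itgb3, which encodes integrin beta 3. The labels do not state how many animals were behind each library. Since each genotype has 1 library, the genotypes could not be compared by a test, so the libraries are called null-labelled and control-labelled, and a gene is said to have risen or fallen where its share of UMIs differed by 2-fold or more. Every interval is a 95% interval for counting error only (exact Poisson, binomial or Clopper-Pearson) and does not cover differences between animals. Limits given for a count of 0 are 3 counts of the total.

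B cells are made in the bone marrow. Precursors rearrange first the immunoglobulin heavy chain and then a kappa or lambda light chain. A cell that assembles both shows IgM on its surface as an immature B cell and lowers the recombination machinery (Rag1) and the surrogate light chain partner Vpreb3. Mature cells add IgD (Ighd) by alternative splicing, gain receptors such as CD23 (Fcer2a), CD21 (Cr2) and the IgM receptor (Fcmr), and circulate back to the marrow. B cells also present antigen on MHC class II, and they answer interferons by inducing guanylate-binding proteins, IFIT proteins and the MHC class I pathway.

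The label held against genes that the rule did not use. Ebf1, which encodes a factor that fixes B cell identity, had at least 1 UMI in 199 of 202 null-labelled and 803 of 849 control-labelled B cells, against 1 of 134 null-labelled and 4 of 191 control-labelled T cells. Pax5, which encodes a second such factor, had one in 130 null-labelled and 632 control-labelled B cells, against 0 and 1 T cells. A light chain constant transcript was found in 99% of null-labelled and all control-labelled B cells, against 18.7% and 7.85% of T cells. Ighm transcripts reached 55.2% of null-labelled and 67.0% of control-labelled T cells, so presence of Ighm alone was not used as a mark of B cells.

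The promoters shown here belong to 3 of the genes that differed most between the libraries, Cxcl10, Ifit3 and Ifit1, and to Vpreb3, which was lower and marks immature cells. Capitals mark matches to GAAA, any 2 bases and GAAA, the core of the interferon-stimulated response element, or to its reverse complement (TTTC, any 2 bases and TTTC), and for Vpreb3 to the octamer ATGCAAAT, also on the reverse strand as ATTTGCAT. Sequences are from RefSeq for GRCm38.p6, upstream of the start site and on the gene's own strand. They cover chr5:92348890-92349139 (minus strand) for Cxcl10, chr19:34583279-34583528 (plus) for Ifit3, chr19:34640639-34640870 (plus) for Ifit1 and chr10:75948050-75948299 (plus) for Vpreb3.
Cxcl10: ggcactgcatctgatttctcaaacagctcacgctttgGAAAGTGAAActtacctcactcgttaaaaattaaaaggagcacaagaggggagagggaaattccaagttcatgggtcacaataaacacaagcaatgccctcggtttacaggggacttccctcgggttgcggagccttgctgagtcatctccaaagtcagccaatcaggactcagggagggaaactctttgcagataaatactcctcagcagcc
Ifit3: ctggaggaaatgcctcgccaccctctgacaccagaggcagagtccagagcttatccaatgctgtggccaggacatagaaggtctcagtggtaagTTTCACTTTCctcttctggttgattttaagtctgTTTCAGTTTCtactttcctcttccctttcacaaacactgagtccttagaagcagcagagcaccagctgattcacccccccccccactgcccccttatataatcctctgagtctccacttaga
Ifit1: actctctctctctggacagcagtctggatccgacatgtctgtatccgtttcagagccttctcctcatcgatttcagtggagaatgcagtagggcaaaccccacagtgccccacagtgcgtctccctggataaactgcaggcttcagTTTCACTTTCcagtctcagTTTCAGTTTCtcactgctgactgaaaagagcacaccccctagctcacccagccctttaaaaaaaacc
Vpreb3: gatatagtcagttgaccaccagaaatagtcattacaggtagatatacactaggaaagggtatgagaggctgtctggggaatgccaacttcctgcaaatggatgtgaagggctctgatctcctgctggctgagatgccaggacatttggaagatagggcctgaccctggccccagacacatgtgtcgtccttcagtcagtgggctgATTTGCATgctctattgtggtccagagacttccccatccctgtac
The match began 213 bases upstream of the start in Cxcl10, 156 and 122 bases upstream in Ifit3, 104 and 85 bases upstream in Ifit1, and 45 bases upstream in Vpreb3. The GAAA pair, read on both strands over 250 bases, was present for 936 of 27025 genes (3.46%). Promoters were available for 9 of the 12 genes that rose most, and 5 of those 9 held it. It was also found for 11 of 15 interferon gamma-weighted genes and 9 of 17 type I interferon genes with a promoter, against 1 of 17 B cell receptor genes. The octamer was present for 490 genes (1.81%). It was found for 0 of the 12 genes that fell most, 1 of 17 B cell receptor genes and 1 of 10 genes of mature, recirculating B cells with a promoter. A match of letters is a description of the sequence and does not show a bound factor.

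Depth differed between the libraries and touches most results below. The null-labelled B cells held a median of 5860 UMIs per cell (range 2322 to 27951) and 1982 genes. The control-labelled B cells held 2196 UMIs (544 to 17781) and 1075 genes. Null-labelled T cells were deeper too, with a median of 8164 UMIs against 3541 in control-labelled T cells. For this reason the main values are also given for B cells with 2000 to 5000 UMIs, an alternative chosen after the data were seen, which held 73 null-labelled and 494 control-labelled cells. Their median depths were closer but still unequal, at 4028 UMIs in the null-labelled and 2438 UMIs in the control-labelled cells.

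The limits of the rule also cut the libraries differently. Exactly 1 Ms4a1 UMI was held by 66 of 202 null-labelled and 163 of 849 control-labelled B cells, and the median was 2 and 4 UMIs. Cells that met every other limit and held no Ms4a1 UMI numbered 323 in the null-labelled library and 842 in the control-labelled library. They are used here as small pre-B cells lacking Ms4a1, a name for the rule rather than a pure stage. At full depth Ighd was found in 27.2% of the null-labelled and 23.4% of the control-labelled ones. Mki67, a marker of cycling cells, was found in 23.8% and 24.7%. The set thus held dividing cells and cells with transcripts of later B cells. Exactly 3 UMIs of Cd79a and Cd79b were held by 23 null-labelled and 4 control-labelled members, and exactly 2 by 23 and 0 barcodes just outside. The mitochondrial limit left out 8 null-labelled and 34 control-labelled barcodes, and the hemoglobin limit 4 and 104. Of the 11 barcodes that the libraries share, 3 were null-labelled B cells and 1 was a control-labelled B cell.

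B cells made up 6.79% (5.91 to 7.76%) of the null-labelled barcodes within the limits and 9.14% (8.57 to 9.75%) of the control-labelled ones, a ratio of 0.743 (0.641 to 0.861). Within the B lineage defined by the rules used here, the Ms4a1-positive cells were 34.2% of 591 cells in the null-labelled library and 45.4% of 1869 in the control-labelled library. The share moved with the depth at which the rule was applied. When every barcode was first thinned to 1000 UMIs the rule found 39 null-labelled and 646 control-labelled cells, a log2 ratio of shares of -2.41 in place of -0.43. Among barcodes with 2000 to 5000 UMIs the log2 ratio was 0.015. Shares of a marrow suspension also follow the other cells in it, so fewer B cells and more of other cells cannot be told apart.

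Across the 3516 genes that reached 50 CPM (counts per 1000000 UMIs of the summed B cells) in either library and 30 UMIs over both, 326 were at least 2-fold higher in null-labelled B cells (9.27%) and 525 at least 2-fold lower (14.9%). The median log2 ratio of all these genes was -0.09. Scaling by TMM factors moved that median up by 0.20 and gave 450 higher and 391 lower, and scaling by median-of-ratios size factors moved it by 0.24 and gave 471 and 376, so the split between higher and lower rests on the scaling. Among B cells with 2000 to 5000 UMIs, 3589 genes passed, of which 10.7% were higher and 11.5% lower. Interferon-response genes were mostly higher and receptors of mature B cells mostly lower. The median log2 ratio of all genes in this depth range was 0.04.

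**Figure D1:**
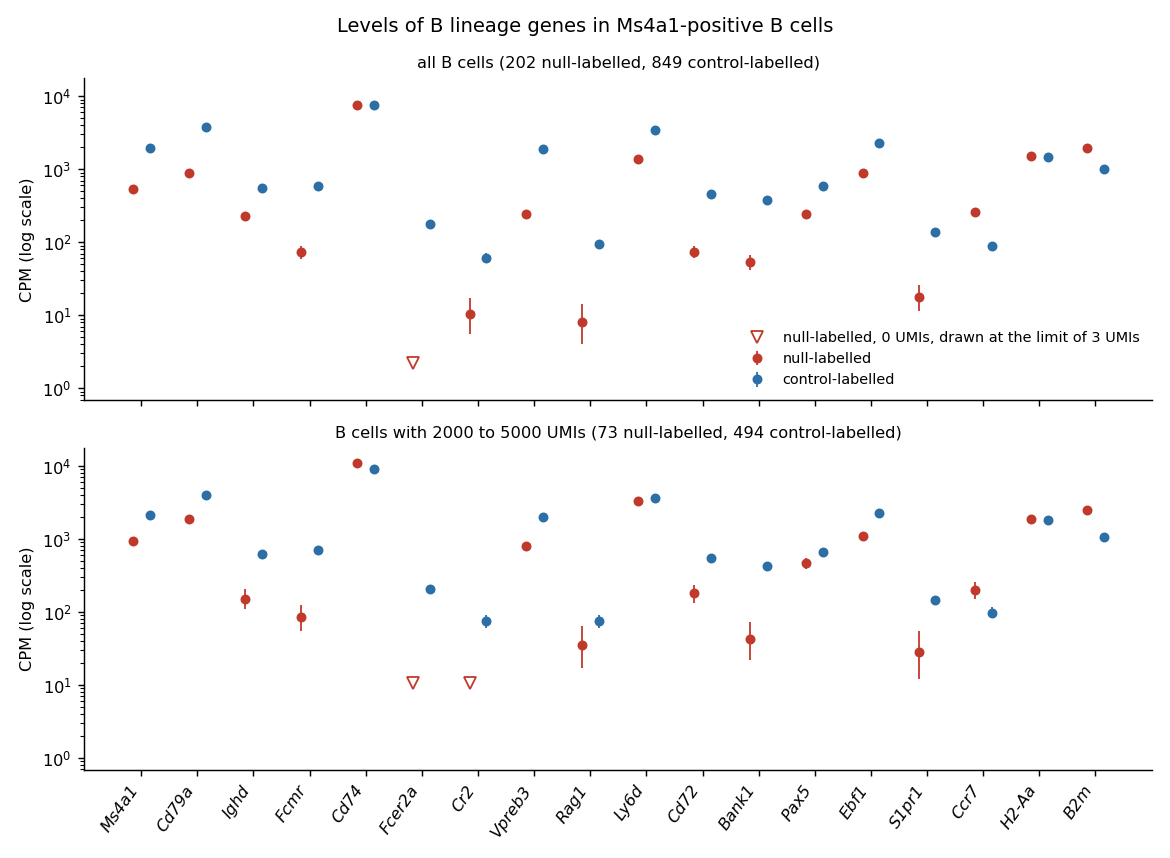
Levels of 18 genes in summed B cells, in CPM on a log scale, for the null-labelled (left of each pair) and control-labelled library, in all B cells (top) and in cells with 2000 to 5000 UMIs (bottom). Bars are 95% Poisson intervals, and an open triangle marks 0 UMIs, drawn at the level of 3 UMIs. Fcmr, Bank1 and S1pr1 lie far apart in both panels, Ly6d and Pax5 come close in the lower one, and Cd74 and H2-Aa nearly coincide in the upper one.

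Interferon-response genes rose in null-labelled B cells. Gbp2, a guanylate-binding protein of cell-autonomous defence (chr3:142620602-142638008, plus strand), stood at 689 CPM in null-labelled B cells against 9.95 CPM in control-labelled B cells, from 939 and 23 UMIs. It was thus 69.2-fold higher (45.9 to 110), and 80.7% of null-labelled cells held a UMI against 2.47% of control-labelled cells. The difference was not carried by a few cells, since leaving out the highest cell of each library gave 71.9-fold. Among cells of 2000 to 5000 UMIs, Gbp2 had 417 CPM in null-labelled cells and 7.58 CPM in control-labelled cells, 55.1-fold higher (28.9 to 118).

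Of the 21 genes on the interferon gamma-weighted list, 17 passed the limits, and 16 of those rose and 1 fell, with a median log2 ratio of 3.75 against -0.09 for all genes. Iigp1, an immunity-related GTPase, had 259 CPM in null-labelled and 1.30 CPM in control-labelled B cells, 199.5-fold higher (67.7 to 972). Irf1, a factor induced by interferon gamma, had 373 CPM in null-labelled and 49.8 CPM in control-labelled cells, 7.51-fold higher (6.12 to 9.27). Gbp6 had 80 UMIs in null-labelled and 1 UMI in control-labelled cells, a ratio of 136 with an interval of 23.7 to 5424. Serpina3g, a serine protease inhibitor, was 30.9-fold higher (22.3 to 44.0), and the related Serpina3f 26.0-fold (15.2 to 48.4). Socs1, which restrains cytokine signalling, was 8.32-fold higher, and Cd274, the gene of PD-L1, a ligand that restrains T cells, 11.2-fold higher (7.53 to 17.1). The member that fell was Ciita, the master regulator of MHC class II, at 89.5 CPM in null-labelled and 186.5 CPM in control-labelled cells. Iigp1 had 135 UMIs in null-labelled and 1 UMI in control-labelled cells of the depth range, where Irf1 was 13.1-fold, Serpina3g 27.6-fold and Socs1 16.9-fold higher. Among cells of 2000 to 5000 UMIs 15 genes of the list passed, 14 rose and none fell, with a median of 3.63.

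Cxcl10, a chemokine that attracts activated T cells, had 468 UMIs in 67 null-labelled B cells and 0 UMIs in control-labelled B cells, at least 264.5-fold higher when the control sum is set at 3 UMIs. The 5 highest cells held 57.9% of the UMIs, and 1 cell held 101. Null-labelled T cells had 352 CPM of Cxcl10, close to the 343 CPM of the null-labelled B cells, so RNA free in the suspension and expression in the B cells were not separated for this gene. For Gbp2 the null-labelled T cells were lower than the B cells, at 173 CPM. Saa3, which encodes an acute-phase protein, had 312 UMIs in null-labelled and 0 in control-labelled B cells, but 295 of them lay in 1 cell.

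Type I interferon genes rose as well. Of 20 genes that passed, 16 rose and 1 fell, with a median log2 ratio of 2.41. Ifit3, an antiviral RNA-binding protein whose promoter is shown above, had 200 CPM in null-labelled and 6.06 CPM in control-labelled B cells, 33.0-fold higher (19.3 to 61.1). Ifit2 was 44.5-fold and Ifit1 33.6-fold higher. Zbp1, a sensor of nucleic acids, had 427 CPM in null-labelled and 23.8 CPM in control-labelled B cells, 17.9-fold higher (13.6 to 24.1). It was found in 85.6% and 4.83% of cells at full, unequal depth. Irf7, a factor that amplifies the type I response, was 7.61-fold and Isg15, a ubiquitin-like modifier, 7.79-fold higher. Lgals3bp, a secreted binding partner of galectin 3 that is outside the lists, had 121 UMIs in null-labelled and 6 UMIs in control-labelled cells, 34.2-fold higher (15.3 to 95). Ly6e fell 2.18-fold, and Ddx58, the RNA sensor RIG-I, stood at 63.8 CPM in null-labelled and 95.2 CPM in control-labelled cells, within the 2-fold limit. The median in the depth range was 2.38, with 16 of 19 genes higher and none lower.

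Per cell, the shift was broad. After thinning every cell to 1000 UMIs, which left out 15 control-labelled cells, 77.2% (70.8 to 82.8%) of 202 null-labelled cells and 2.28% (1.38 to 3.54%) of 834 control-labelled cells held 3 or more UMIs of the interferon gamma-weighted list, in 1 draw. Means over 20 draws were 76.1% in null-labelled and 2.73% in control-labelled cells. The medians in that draw were 5 and 0 UMIs. Only 6 null-labelled cells held none, against 497 control-labelled cells. The highest control-labelled cell held 4 UMIs, below the median of the null-labelled cells.

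**Figure D2:**
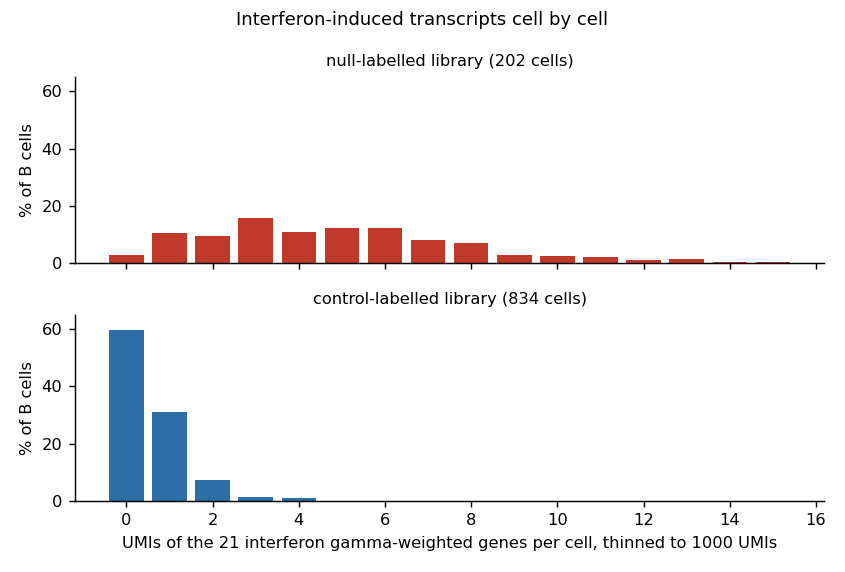
Distribution of UMIs of the interferon gamma-weighted genes per B cell after thinning to 1000 UMIs, as the percentage of cells in 202 null-labelled and 834 control-labelled cells. Control-labelled cells pile up at 0, with a highest value of 4 UMIs, and null-labelled cells spread around a median of 5 UMIs up to 15.

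Interferon-response genes were also higher in other classes of the null-labelled library. Of all genes tested, 8.48% were at least 2-fold higher and 19.8% at least 2-fold apart either way in small pre-B cells, 11.2% and 23.8% in pro-B and large pre-B cells, and 8.06% and 21.8% in T cells. Gbp2 was 97.5-fold higher in small pre-B cells lacking Ms4a1, 71.6-fold in pro-B and large pre-B cells and 8.22-fold in T cells. The share of thinned cells with 3 or more UMIs of the interferon gamma-weighted list was 69.3% in null-labelled and 1.08% in control-labelled small pre-B cells. In T cells it was 28.4% in null-labelled and 8.38% in control-labelled cells. The median log2 ratio of the list was 4.54 in small pre-B cells, 4.85 in pro-B and large pre-B cells and 1.24 in T cells, all for the null-labelled over the control-labelled library, against -0.07, -0.10 and -0.14 for all genes in those classes. The difference between B cells and T cells was not tested, since each class has 1 library per genotype.

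The MHC class I pathway rose in part. Of its 14 genes, 8 rose and none fell, with a median log2 ratio of 1.06, and 11 rose in the depth range with a median of 1.39. Nlrc5, the transactivator of class I genes, had 163 CPM in null-labelled and 16.0 CPM in control-labelled B cells, 10.2-fold higher (7.16 to 14.8). Tap1, a subunit of the peptide transporter, was 5.13-fold higher and its partner Tapbp 3.84-fold. B2m, the invariant light chain of class I molecules, had 1947 CPM in null-labelled and 1009 CPM in control-labelled cells, a ratio of 1.93 (1.82 to 2.04). The classical heavy chains H2-K1 and H2-D1 had ratios of 1.59 and 1.68. B2m and H2-D1 passed 2-fold in the depth range, at 2.36 and 2.38, and H2-K1 had a ratio of 1.93.

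**Figure D3:**
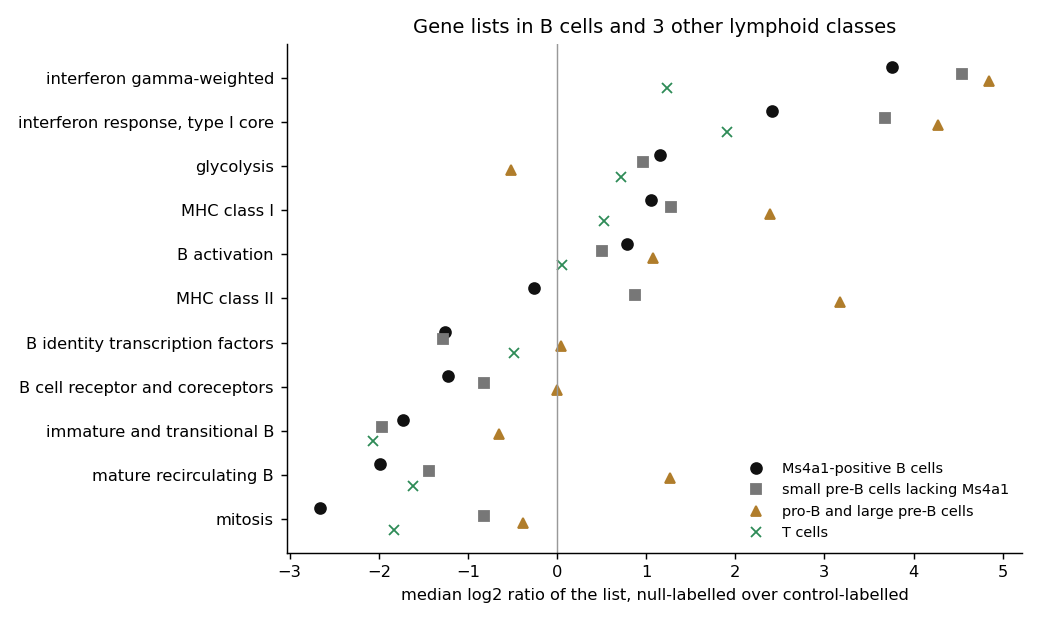
Median log2 ratio, null-labelled over control-labelled library, of 11 gene lists in Ms4a1-positive B cells, small pre-B cells lacking Ms4a1, pro-B and large pre-B cells and T cells. Interferon lists lie above 0 in all 4 classes. MHC class II lies near 0 in B cells, at -0.26, and at 3.17 in pro-B and large pre-B cells.

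The chains of MHC class II differed little between the libraries' B cells. Cd74, the invariant chain and a marker of this class of cells, had 7545 CPM in null-labelled and 7667 CPM in control-labelled B cells, a ratio of 0.984 (0.960 to 1.01). H2-Aa had 1520 CPM in null-labelled and 1483 CPM in control-labelled cells, and H2-Eb1 had a ratio of 1.04. Of the 10 genes of the list 3 fell and none rose. H2-Ob, a subunit of the chaperone that restrains peptide loading, had 44.0 CPM in null-labelled and 245 CPM in control-labelled cells, 5.56-fold lower (4.26 to 7.39), and 5.66-fold lower in the depth range. Its partner H2-Oa was 2.61-fold lower and Ciita 2.08-fold lower, and in the depth range Ciita had a ratio of 0.820. Cd74 had a ratio of 2.14 in small pre-B cells and of 12.1 in pro-B and large pre-B cells, where control-labelled cells had only 48.9 CPM.

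Class II transcripts were found in more of the null-labelled cells. H2-Aa was found in 89.6% of null-labelled and 55.8% of control-labelled B cells at full depth. After thinning to 1000 UMIs, 93.1% of null-labelled and 76.1% of control-labelled cells held 3 or more UMIs of the class II list, with medians of 10 and 11 UMIs, in 1 draw. Means over 20 draws were 93.3% and 75.5%. The lower quartile was 6 UMIs in null-labelled and 3 UMIs in control-labelled cells, and the upper quartile 19 and 24 UMIs. Cells with none numbered 4 of 202 null-labelled and 104 of 834 control-labelled cells.

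Receptors of mature, recirculating B cells fell. Of 14 genes of that list, 10 fell and 1 rose, with a median log2 ratio of -1.99, and in the depth range it was again 10 and 1 of 14, with a median of -1.66. The list also fell in other classes of the null-labelled library, with a median of -1.44 and 6 of 8 genes lower in small pre-B cells, and of -1.61 with 4 lower and 1 higher of 6 in T cells. In pro-B and large pre-B cells 4 of 5 genes rose, with a median of 1.27. These differences between classes were not tested. Fcer2a, the low-affinity IgE receptor CD23 (chr8:3681737-3694175, minus strand), had 0 UMIs in 202 null-labelled B cells and 416 UMIs in 234 control-labelled B cells. At 180 CPM in control-labelled cells it was at least 81.8-fold lower in null-labelled cells when their sum is set at 3 UMIs. A count of 0 allows a share of cells with a UMI of up to 1.49%, against 27.6% of control-labelled cells. The depth range held 0 Fcer2a UMIs in null-labelled and 271 UMIs in control-labelled cells. All barcodes of the null-labelled library within the gene and mitochondrial limits held 6 Fcer2a UMIs, and those of the control-labelled library 588.

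Fcmr, the IgM receptor (chr1:130865669-130880791, plus strand), had 73.4 CPM in null-labelled and 597.5 CPM in control-labelled B cells, 8.14-fold lower (6.65 to 10.1). UMIs were found in 29.7% of null-labelled and 64.1% of control-labelled cells, and after thinning in 6.61% and 40.7%. In the depth range it was 8.29-fold lower (null-labelled 84.2 CPM, control-labelled 698 CPM). T cells held 1 Fcmr UMI in the null-labelled and 0 in the control-labelled library.

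Ighd, which encodes the IgD heavy chain, had 228 CPM in null-labelled and 548 CPM in control-labelled B cells, 2.40-fold lower (2.12 to 2.73). More null-labelled cells held a UMI at full depth, 59.4% against 54.4%, but after thinning the shares were 19.1% in null-labelled and 35.9% in control-labelled cells. Ighd was 4.06-fold lower in the depth range. S1pr1, the receptor for sphingosine 1-phosphate that lets lymphocytes leave tissues, was 7.74-fold lower (5.11 to 12.3), and Klf2, a factor that drives S1pr1 in T cells, 3.99-fold lower. Cd55, a complement inhibitor, was 6.99-fold lower and Ltb, a subunit of lymphotoxin, 4.97-fold lower. The depth range gave 5.18-fold lower for S1pr1, 2.45-fold for Klf2 and 4.65-fold for Ltb. All 3 were lower in null-labelled T cells as well, with ratios of 0.221 for S1pr1, 0.315 for Klf2 and 0.268 for Ltb. Cr2, the complement receptor CD21, had 14 UMIs in null-labelled and 141 UMIs in control-labelled cells, 5.94-fold lower (3.43 to 11.1), and 0 and 98 UMIs in the depth range. Tnfrsf13c, the receptor for the survival factor BAFF, was 2.27-fold lower, and in the depth range its ratio of 0.562 stayed within the limit.

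A member of the same list rose. Ccr7, the chemokine receptor that guides lymphocytes to lymph nodes, had 259 CPM in null-labelled and 88.3 CPM in control-labelled B cells, 2.93-fold higher (2.46 to 3.50), and 2.05-fold higher in the depth range. Cxcr4, which holds B cells in the marrow, had a ratio of 1.42 in all cells and of 3.30 in the depth range.

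Components of the B cell receptor fell less evenly. Of 21 genes that passed, 13 fell and 1 rose, with a median log2 ratio of -1.23, and in the depth range 9 of 21 fell with a median of -0.65. Ms4a1, Cd79a and Cd79b are on this list, are counted among the 13 that fell and were used to choose the cells. Their values, and their part in the counts and medians of the list, are thus a description. Ms4a1 had 529 CPM in null-labelled and 1959 CPM in control-labelled cells. Cd79a had 893 CPM in null-labelled and 3774 CPM in control-labelled cells, and Cd79b was 2.23-fold lower. Bank1, a scaffold of receptor signalling, had 53.6 CPM in null-labelled and 383 CPM in control-labelled cells, 7.15-fold lower (5.63 to 9.21), and 10.1-fold lower in the depth range. Cd72, an inhibitory coreceptor, was 6.10-fold lower (4.97 to 7.56), and 3.03-fold lower in the depth range. Ptpn6, the phosphatase SHP-1, was 4.23-fold lower and the kinase Blk 3.83-fold lower, and both passed 2-fold in the depth range, at 3.57 and 3.04.

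Other receptor genes fell less or stayed within the limit. Siglecg, a sialic acid-binding inhibitor, was 2.51-fold lower in all cells and had a ratio of 0.889 in the depth range. Cd22, another inhibitor, had a ratio of 0.745, and the kinase Syk one of 0.766. The gene that rose was Fcgr2b, the inhibitory Fc receptor, with 136 CPM in null-labelled and 67.5 CPM in control-labelled cells, 2.02-fold higher (1.63 to 2.52), which was 1.45-fold in the depth range.

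The factors that set B cell identity were lower without being lost. Of 17 genes, 10 fell and none rose, with a median log2 ratio of -1.26, and in the depth range 4 fell with a median of -0.52. Ebf1 had 875 CPM in null-labelled and 2254 CPM in control-labelled B cells, 2.58-fold lower (2.42 to 2.74), and 2.04-fold lower in the depth range. Pax5 had 247 CPM in null-labelled and 591 CPM in control-labelled cells, 2.39-fold lower, and 1.41-fold lower in the depth range. Bcl11a, a factor needed for early B cells, was 3.75-fold lower in all cells and 4.69-fold in the depth range, and Bach2, which holds back plasma cell genes, 3.11-fold and 2.16-fold lower. Irf8 had a ratio of 1.38 (1.26 to 1.51). Cbfa2t3, a corepressor and one of the genes that fell most, had 10 UMIs in null-labelled and 325 UMIs in control-labelled cells, 19.2-fold lower (10.3 to 40.4). It had 7 and 185 UMIs in the depth range, 5.71-fold lower. Il4i1, an amino acid oxidase induced by interleukin 4 in B cells, had 3 UMIs in null-labelled and 168 UMIs in control-labelled cells, 33.0-fold lower (11.1 to 162), and 0 and 129 UMIs in the depth range.

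Genes of immature and transitional cells were lower as well. Of 8 genes that passed, 7 fell and none rose, with a median log2 ratio of -1.73. In the depth range 3 fell and 1 rose, with a median of -0.49. Vpreb3 (chr10:75943057-75949657, plus strand) had 241 CPM in null-labelled and 1895 CPM in control-labelled B cells, 7.85-fold lower (7.02 to 8.81). In the depth range it had 796 CPM in null-labelled and 1991 CPM in control-labelled cells, 2.50-fold lower. Rag1, which encodes a subunit of the recombinase, had 11 UMIs in null-labelled and 219 UMIs in control-labelled cells, 11.7-fold lower (6.43 to 23.9), and 2.14-fold lower in the depth range.

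Cd24a, a surface marker that is high on immature cells, had 214 CPM in null-labelled and 657 CPM in control-labelled B cells, 3.08-fold lower, and 2.73-fold lower in the depth range. Cd93, the marker of transitional cells, was 3.07-fold lower in all cells, but its ratio was 0.910 in the depth range. Ly6d, an early B lineage marker, likewise was 2.49-fold lower in all cells and had a ratio of 0.911 in the depth range. Il7r, the interleukin 7 receptor of precursors, had 96.8 CPM in null-labelled and 59.3 CPM in control-labelled cells, a ratio of 1.63 (1.28 to 2.09), and rose 3.61-fold in the depth range.

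The order of the libraries by the balance of mature and immature list UMIs per cell changed with the setting. Thinned to 1000 UMIs and averaged over 20 draws, cells with more mature-list UMIs were 41.1% of null-labelled cells (35.6 to 47.0% over the draws) and 44.7% of control-labelled cells (43.2 to 46.4%). At full depth they were 53.5% and 44.9%. The medians after thinning were 2 mature-list and 1 immature-list UMIs in null-labelled cells against 6 and 6 in control-labelled cells, and 100 null-labelled and 113 control-labelled cells lay within 1 UMI of the dividing line. This is a range of scores and not a split into cell types.

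Within each library, cells with and without an Ighd UMI were set against each other. The null-labelled library had 120 cells with and 82 without (median 6842 and 4230 UMIs), and the control-labelled library 462 and 387 (2289 and 2139 UMIs). In both libraries the Ighd-positive cells were lower in Vpreb3 (ratios of 0.280 in null-labelled and 0.448 in control-labelled cells), in Cd93 (0.389 and 0.397) and in Cd24a (0.377 and 0.559). They were higher in Bcl2, the survival factor, by 2.55-fold and 2.6-fold. Ly6d had ratios of 0.423 in null-labelled and 0.627 in control-labelled cells. Genes not particular to immature cells were below 1 as well, with Ighm at 0.464 and 0.711, Ms4a1 at 0.488 and 0.711, and Cd79a at 0.435 and 0.819.

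For antigen presentation and Fcmr the ratios of the split differed between the libraries, a difference that was not tested. H2-Aa had 2235 CPM in Ighd-positive and 524 CPM in Ighd-negative control-labelled cells, 4.26-fold higher (3.89 to 4.68). In null-labelled cells it had 1477 CPM in Ighd-positive and 1606 CPM in Ighd-negative cells, a ratio of 0.920 (0.840 to 1.01). Cd74 had a ratio of 0.702 in null-labelled and of 1.90 in control-labelled cells, and Fcmr of 0.481 and 1.54. The Ighd-negative null-labelled cells thus held 3.06 times the H2-Aa share of the Ighd-negative control-labelled cells, whereas among Ighd-positive cells the ratio was 0.661. Gbp2 was 67.0-fold higher in Ighd-positive and 65.4-fold higher in Ighd-negative null-labelled cells than in their control-labelled counterparts. Absence of an Ighd UMI depends on depth, and its part in these ratios was not tested.

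**Figure D4:**
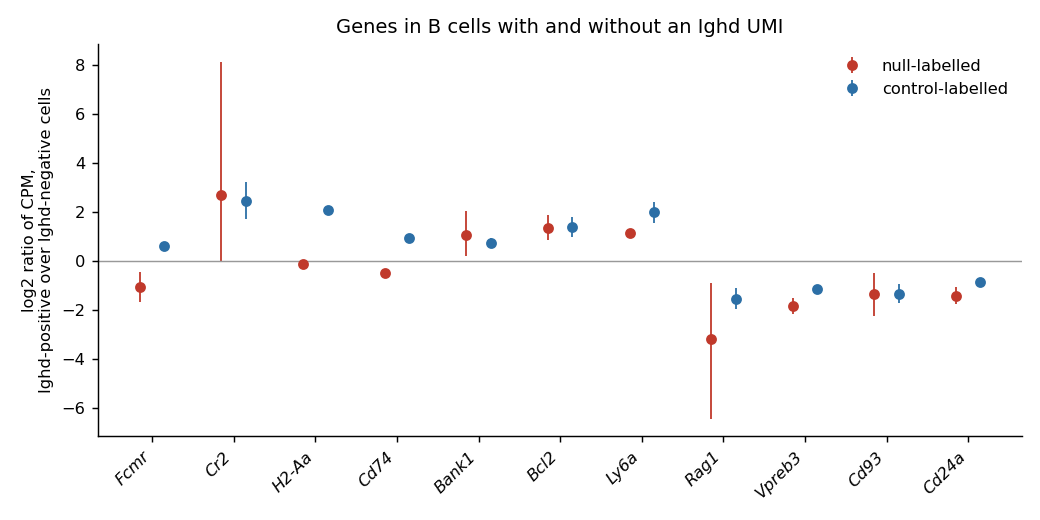
Log2 ratio of Ighd-positive over Ighd-negative B cells for 11 genes, in the null-labelled library (left of each pair) and the control-labelled library, with 95% intervals. Rag1, Vpreb3, Cd93 and Cd24a lie below 0 in both libraries, and H2-Aa, Cd74 and Fcmr lie above 0 only in the control-labelled library.

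Immunoglobulin transcripts gave the leading light chain of single cells. Each cell was assigned to the chain with most constant-region UMIs, Igkc for kappa and Iglc1, Iglc2 and Iglc3 for lambda. Many cells held UMIs of both chains, so the class is a majority call. Lambda cells were 18 of 202 null-labelled B cells (8.91%, 5.37 to 13.7%) and 215 of 849 control-labelled B cells (25.3%, 22.4 to 28.4%), and kappa cells 179 and 626. Of the lambda cells, 3 null-labelled and 124 control-labelled cells held most UMIs from Iglc1, and 15 and 89 from Iglc2 and Iglc3, which are near-identical copies and are summed. Thinned to 1000 UMIs, lambda cells were 9.68% of null-labelled and 26.2% of control-labelled cells, means of 20 draws. Light chain RNA in T cells was low, with Iglc1 at 0 CPM in null-labelled and 2.48 CPM in control-labelled T cells.

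The lambda share went with depth in the control-labelled library. Cells under 2000 UMIs held 120 lambda cells among 299 (40.1%), and the null-labelled library had no B cell in that range. From 2000 to 5000 UMIs the share was 5 of 73 null-labelled cells (6.85%, 2.26 to 15.3%) and 87 of 494 control-labelled cells (17.6%, 14.4 to 21.3%). Over 5000 UMIs it was 13 of 129 null-labelled cells (10.1%, 5.48 to 16.6%) and 8 of 56 control-labelled cells (14.3%, 6.38 to 26.2%), and these intervals overlap. The pooled shares thus rest on different depths in the libraries, and the part of depth in their difference was not tested.

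**Figure D5:**
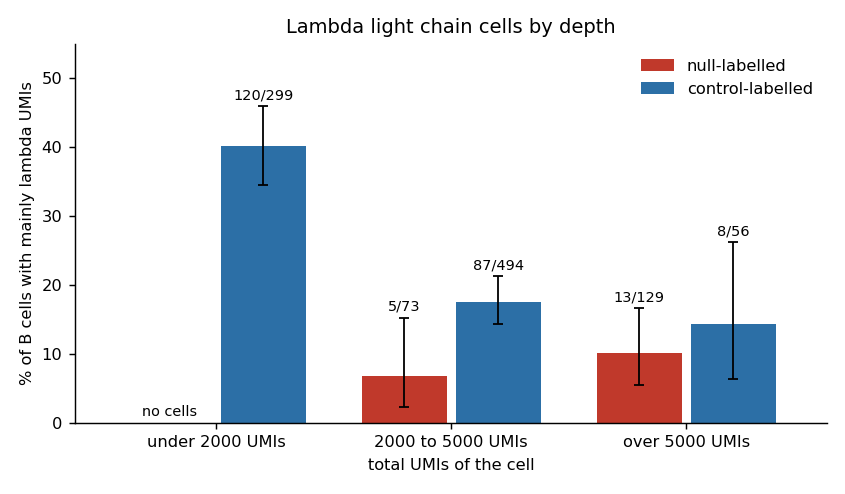
Share of B cells assigned to a lambda light chain, in percent, by UMIs per cell, with 95% Clopper-Pearson intervals, in the null-labelled (left) and control-labelled library. The null-labelled library holds no cell under 2000 UMIs, where 40.1% of control-labelled cells are lambda, and over 5000 UMIs the intervals of 10.1% and 14.3% overlap.

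Levels of the chains did not simply track these shares. Iglc1 (chr16:19061618-19062071, minus strand) had 156 CPM in null-labelled and 2742 CPM in control-labelled B cells, 17.5-fold lower (15.3 to 20.2), and 7.32-fold lower in the depth range. It was also lower in null-labelled cells within each class, 51.4-fold in lambda cells and 6.55-fold in kappa cells. Igkc had 4276 CPM in null-labelled and 9857 CPM in control-labelled cells, 2.31-fold lower, and 1.52-fold lower in the depth range. Kappa cells were nonetheless 88.6% of null-labelled and 73.7% of control-labelled B cells at full depth. Ighm had 4242 CPM in null-labelled and 6672 CPM in control-labelled cells, a ratio of 0.636, which was 1.31 in the depth range. Ighm led among constant genes in 200 of 202 null-labelled and 823 of 849 control-labelled cells, and Ighd in 0 and 16. No cell was led by a switched isotype, which allows a share of up to 1.49% of null-labelled and 0.353% of control-labelled cells.

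Lambda and kappa cells of the control-labelled library differed in recombination genes. Rag1 had 348 CPM in 215 lambda cells and 23.5 CPM in 626 kappa cells, 14.8-fold higher (10.5 to 21.3). Vpreb3 had a ratio of 1.65, while Cd93 was 2.39-fold and Il7r 2.82-fold higher. H2-Aa was 2.43-fold lower and Cr2 3.72-fold lower in the lambda cells, whose median depth was 1948 UMIs against 2301 in kappa cells. In the null-labelled library Rag1 had 3 UMIs in 18 lambda cells and 8 UMIs in 179 kappa cells, a ratio of 3.1 with an interval of 0.530 to 12.9, too few to compare.

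Variable segments lie at the far end of the transcript from the 3′ reads and were caught in few cells. An Ighv UMI was found in 8.42% of null-labelled and 7.77% of control-labelled B cells, spread over 14 and 41 of 185 segments. An Igkv UMI was found in 13.4% and 16.0% of cells, over 22 and 54 of 160 segments. No cell held more than 1 Ighv segment, from 18 null-labelled and 73 control-labelled Ighv UMIs in all. Cells with 2 or more Igkv segments numbered 3 null-labelled and 13 control-labelled, and with 2 or more Iglv segments 0 and 2.

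Some genes of activation, and 1 that promotes cell death, rose beside the interferon genes. Cd86, a costimulatory ligand for T cells, had 120 CPM in null-labelled and 25.5 CPM in control-labelled B cells, 4.68-fold higher (3.46 to 6.42), and 2.48-fold in the depth range. Myc, a driver of growth, had 123 UMIs in null-labelled and 27 UMIs in control-labelled cells, 7.72-fold higher (5.06 to 12.2), and 3.70-fold in the depth range. Tlr7, the receptor for single-stranded RNA, was 6.78-fold higher (4.30 to 11.1), and 4.05-fold in the depth range, whereas Cd180, a Toll-like receptor homologue of B cells, was 4.17-fold lower, with a ratio of 0.505 in the depth range. Bcl2l11, which encodes the death-promoting protein BIM, had 177 CPM in null-labelled and 22.9 CPM in control-labelled cells, 7.71-fold higher (5.71 to 10.6), and 11.3-fold in the depth range. Bcl2 had a ratio of 1.46. Tbx21, the factor T-bet of age-associated B cells, had 25 UMIs in 16 null-labelled cells and 0 in control-labelled cells, below the level limit for a call. The list of 11 germinal centre, memory and age-associated B cell genes summed to 233.3 CPM in null-labelled and 233.6 CPM in control-labelled cells. Only 1 gene of that list passed the level limit, and it stayed within 2-fold.

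The activation list as a whole gave 4 of 8 genes higher and none lower, with a median log2 ratio of 0.78, and 3 of 9 in the depth range. Cd83, an activation antigen, was 2.09-fold higher in all cells but had a ratio of 0.807 in the depth range. Ccnd2, a cyclin of cell cycle entry, was 2.57-fold higher in all cells with a ratio of 1.08 in the depth range. Of 8 immediate early genes 4 fell and none rose. Fos, a factor induced within minutes of stimulation, had 25.7 CPM in null-labelled and 158 CPM in control-labelled cells, 6.17-fold lower (4.35 to 8.99), and 3.75-fold lower in the depth range.

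Dividing cells were few in both libraries. Of 11 genes of the mitosis list 8 fell and none rose, with a median log2 ratio of -2.66. Mki67, a marker of cycling cells, had 38 UMIs in 10 null-labelled cells and 402 UMIs in 64 control-labelled cells, 6.24-fold lower (4.47 to 8.95). Ube2c, a ubiquitin-conjugating enzyme of mitosis, had 4 UMIs in null-labelled and 305 UMIs in control-labelled cells, 45-fold lower (17.4 to 166). The 5 highest control-labelled cells held 42.0% of these. Ccnb2, a mitotic cyclin, had 1 UMI in null-labelled and 122 UMIs in control-labelled cells, and Lockd, a noncoding RNA next to a cell cycle inhibitor gene, 2 and 123 UMIs. Cdc25b, a phosphatase that triggers mitosis, had 4 UMIs in null-labelled and 175 UMIs in control-labelled cells, 25.8-fold lower (9.90 to 95.8), and 8.10-fold lower in the depth range. In the depth range 2 of 5 genes of the list fell, and Mki67 had 0 UMIs in null-labelled and 76 in control-labelled cells. Thinned to 1000 UMIs, 27 of 202 null-labelled cells (13.4%) and 66 of 834 control-labelled cells (7.91%) held 3 or more mitosis UMIs. Cells with 10 or more ran the opposite way, at 1 null-labelled and 27 control-labelled cells, so the order of the shares rests on the limit. Ube2c had 2 and 21 UMIs and Ccnb2 0 and 23 UMIs in null-labelled and control-labelled cells of the depth range. The DNA replication list gave 6 genes, none of which passed 2-fold.

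Glycolysis gave different values in all cells and in the depth range. Of 10 genes 6 were higher and none lower, with a median log2 ratio of 1.16, for example Ldha, which makes lactate, at 2.90-fold and Pkm at 3.01-fold. In the depth range 1 was higher and 1 lower, with a median of -0.06, and Ldha had a ratio of 0.781.

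Integrins of B cells were measured because the genotypes differ in Itgb3. Itgb3 itself had 9 UMIs in null-labelled and 29 UMIs in control-labelled B cells, and 270 and 1479 UMIs in the whole libraries. Counting at the 3′ end outside a deleted part does not check the label, and the labels do not state which part was deleted. Itgb7, which pairs with integrin alpha 4 for homing to the gut, had 6 UMIs in null-labelled and 125 UMIs in control-labelled B cells, 12.3-fold lower (5.49 to 34.1), and 0 and 49 UMIs in the depth range. Its partner Itga4 had a ratio of 1.63, and Itgb2 fell 2.11-fold. Tln1, which activates integrins, fell 2.75-fold, and 2.22-fold in the depth range.

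Transcripts of other cell types moved with the libraries and are given beside these results. The rule itself limited Cd3, hemoglobin, S100a8 and S100a9 transcripts, so sums that hold these genes are a description of cells chosen by it. The limits on hemoglobin, S100a8 and S100a9 also applied to the other classes. The 11 neutrophil markers summed to 418 CPM in null-labelled and 1789 CPM in control-labelled B cells, and the 10 monocyte markers to 104 and 1095 CPM. Erythroid markers summed to 1175 CPM in null-labelled and 2862 CPM in control-labelled cells, and the 10 T cell markers to 37.4 and 26.0 CPM, with Cd3e and Cd8a at 0 in both. Megakaryocyte markers summed to 3.67 CPM in null-labelled and 49.8 CPM in control-labelled cells. Neutrophil markers in T cells showed the same direction, with 359 CPM in null-labelled and 1250 CPM in control-labelled T cells. Small pre-B cells showed the opposite, with 3723 CPM of neutrophil markers in null-labelled and 3052 CPM in control-labelled cells, and 1412 and 783 CPM of monocyte markers. Their part in the results above was not tested.

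Several of the genes that fell most belong to these types. Lyz2 of myeloid cells had 10 UMIs in null-labelled and 1760 UMIs in control-labelled B cells, of which 1191 lay in 5 cells. Elane, Prtn3, Mpo and Ctsg, granule proteins of granulocyte precursors, had 2, 2, 3 and 2 UMIs in null-labelled cells. In control-labelled cells they had 609, 620, 264 and 224 UMIs, with 93.8 to 97.3% of them in 5 cells. With 3 null-labelled and 19 control-labelled cells left out for UMIs of other types, the interferon gamma-weighted list had a median log2 ratio of 3.70 and the mature list one of -2.04, against 3.75 and -1.99 in all cells.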

How the data were processed

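The deposited matrices hold whole-number UMI counts per gene and barcode, made by the authors from 10x 3′ libraries, with no normalization. Cell Ranger 3.0, Seurat and the build mm10 are named in the submitters' processing notes, and software version 3.1.0 is given per the file headers. The count of retained UMIs was 34701651 in the null-labelled and 66466949 in the control-labelled library. Raw counts of the B cells were summed per library and divided by their total (CPM). Ratios carry exact binomial intervals from the split of UMIs. The method was run on simulated Poisson counts, the error that the intervals assume. That run does not cover genes whose UMIs lie in few cells. Members, gene lists and comparisons were chosen with earlier results of these data known. The genes named are the 12 highest and 12 lowest by the interval bound nearest 1, with 30 or more UMIs in total and 50 CPM in at least 1 library, plus members of the lists. Small pre-B cells meet the rule with no Ms4a1 UMI, pro-B and large pre-B cells meet it (whatever their Ms4a1) with 3 or more UMIs of Vpreb1, Igll1 and Dntt, and T cells hold 2 or more Cd3 UMIs and at most 1 of Cd79a and Cd79b. Doublets were not removed in the main values. Scrublet scores, at 0.8% per 1000 barcodes, would remove 4 null-labelled and 31 control-labelled B cells, and that removal was an alternative. Thinning draws a fixed number of UMIs per cell, and shares of light chains, stages and cells with an Ighd or Fcmr UMI are means of 20 draws, while list scores per cell use 1 draw. Coordinates are from GENCODE vM21 for mm10, which lists 30934 of 31053 features (99.6%). Alternatives changed the scaling, the limits on genes and cells, the depth and the treatment of doublets and free RNA. Cells of 1 library are not replicates. Tools were Python 3.11.15, numpy 2.4.6, scipy 1.17.1, pandas 2.3.3, scanpy 1.11.5, matplotlib 3.10.9, R 4.3.3 and edgeR 4.0.16, used for TMM factors only. Some genes of the lists are not reported here.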

Additional observations from a re-analysis of the deposited data

Results flagged for a closer look

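Some barcodes met every limit of the B cell rule except the mitochondrial one. They numbered 8 in the null-labelled and 34 in the control-labelled library and were left out of all comparisons.

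Genes of the lists that the rule did not use and that passed the level limit in B cells were compared between classes. In B cells and small pre-B cells lacking Ms4a1, 3 were at least 2-fold apart in opposite directions, with both intervals clear of 1. How many of all genes did so was not counted. Ratios are null-labelled over control-labelled, and none of these differences between classes was tested, since each class has 1 library per genotype. Spi1, a myeloid and B cell factor, had a ratio of 0.413 in B cells and 2.11 in small pre-B cells. Ly6c2, a marker of monocytes, had 0.209 and 2.34, and Ms4a6c, also of monocytes, 0.469 and 2.48. The null-labelled pre-B set includes barcodes of up to 122809 UMIs, and Lyz2 stood at 485 CPM there against 323 CPM in the control-labelled set.

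Against pro-B and large pre-B cells, 10 genes met the same limits. Klf2 had a ratio of 0.251 in B cells and 2.41 in the precursors, Ltb 0.201 and 3.37, Tnfrsf13c 0.441 and 2.13, and S1pr4, a second sphingosine 1-phosphate receptor, 0.347 and 2.95. Ciita had 0.480 and 4.07, Nfkbid, an inhibitor of NF-kB, 0.344 and 2.41, and Ms4a6c 0.469 and 6.06. Myc went the other way, with 7.72 in B cells and 0.151 in precursors, as did the glycolytic genes Tpi1, with 2.53 and 0.315, and Ldha, with 2.90 and 0.283. Some precursor ratios rest on few UMIs. In null-labelled and control-labelled precursors Nfkbid had 13 and 12 UMIs, Ciita 22 and 12, Ms4a6c 30 and 11, and Myc 8 and 118.

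Against T cells, Myb, a factor of progenitors, had a ratio of 0.265 in B cells and 2.28 in T cells.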

How the results depend on the processing

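No paired analysis was possible because each genotype has 1 library and the labels give no replicate numbers. Of 1783 values of single genes and lists under 22 other settings, 1344 moved by less than their interval, 432 moved more and 7 turned from past 2-fold to the opposite sign. For the 65 genes at 2-fold or more, 1099 of 1104 such values had the sign of the main value and 1048 were still at 2-fold or more. Over the settings run, the median log2 ratio lay between 3.47 and 4.01 for the interferon gamma-weighted list, 1.23 and 2.94 for type I interferon, -2.14 and -1.24 for mature B cells, -1.47 and -0.58 for the B cell receptor, and -0.70 and 0.31 for MHC class II. The log2 ratio of B cell shares (-0.43) was -0.83 with a 5% mitochondrial limit, -0.69 with 2 or more Ms4a1 UMIs, -0.89 with 6 or more Cd79a and Cd79b UMIs, -0.14 with stricter hemoglobin and S100 limits, -2.41 with the rule applied after thinning and 0.015 in cells of 2000 to 5000 UMIs. Higher genes (326) numbered 200 at the 5% limit, which left 14 null-labelled cells. With a minimum of 30 UMIs only, 553 were higher and 1401 lower, and with 200 CPM 99 and 139. The difference of -2.65 percentage points in cells with an Igkv UMI, null-labelled minus control-labelled, was -10.6 at the 5% limit and 4.10 with the rule after thinning. The difference in lambda cells (-16.5 points) was -10.3 at 2000 to 5000 UMIs, -9.01 thinned to 2000 UMIs and -34.5 in cells with 90% of light chain UMIs from 1 chain. The difference in cells with more mature-list UMIs (-3.62 points) was -21.3 at 2000 to 5000 UMIs, -15.5 with the rule after thinning and 8.59 at full depth. Of values past 2-fold, the sign changed at 2000 to 5000 UMIs for glycolysis (-0.057), Prtn3 (0.626) and Cd83 (-0.309), and with the rule after thinning for glycolysis (-0.286), Prtn3 (0.732), Ctsg (1.41) and Mpo (1.56), all as log2 ratios. Values within 2-fold changed sign too, for example Ighm (-0.65 in all cells, 0.39 at 2000 to 5000 UMIs), B precursor genes (-0.62 and 0.76) and heat shock genes (0.46 and -0.21). The cause was not tested. Leaving out each gene's highest cell lowered the lower bound of the log2 ratio of Saa3 to 3.26. The depth range, the light chain limit, and leaving out highest cells or cells with UMIs of other types were chosen after seeing the data. Variation between cells was not recomputed under the alternatives. In null-labelled B cells 3 UMIs correspond to 2.20 CPM and in control-labelled cells to 1.30 CPM, which limits genes near that level.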

Other observations

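Variation between cells, as variance over mean of UMIs in cells thinned to 1000 UMIs, was led in null-labelled B cells by Malat1 (9.74), a nuclear noncoding RNA, Saa3 (8.30), Fcer1g (5.38), the gamma chain of Fc receptors, and Igkc (5.06). In control-labelled B cells it was led by Prtn3 (18), Elane (17.8), Lyz2 (16.2) and Iglc1 (13.8).

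Among V segments, Igkv12-46 and Igkv19-93 were found in 14 control-labelled cells each. Iglv1 was found in 1 null-labelled and 29 control-labelled cells, and Iglv3 in 2 and 17.

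Transcripts of 4 Y-linked genes summed to 273 CPM in null-labelled and 262 CPM in control-labelled B cells. Apoe transcripts numbered 2202 UMIs in the null-labelled and 7719 UMIs in the control-labelled library, although both are labelled Apoe(-/-), and counting at the 3′ end does not check that label.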
